A study of Mus musculus with 24 samples.

Results

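The 10 genes described here encode proteins that bring fatty acids into a cell, carry them through the cytosol and build them into triglyceride, together with the transcription factor Pparg. They were chosen by name, with earlier results of these data known. They are Cd36, Mogat1, Dgat2, Pparg, Fabp1, Fabp2, Fabp4, Fabp5, Vldlr and Lpl. All 10 were found among the 55797 gene names of the count files. Brain and liver RNA was sequenced from male mice (strain label C57/BL6), either db/db, which carry a defective leptin receptor on both alleles, or db/+, which carry 1 altered and 1 functional allele. Mice of each genotype drank water, sucrose or brazzein (3M-Brazzein in the title of the series), a sweet-tasting protein, and every sample carries a treatment entry of 16 weeks. Each of the 2 tissues, 2 genotypes and 3 drinks is represented by 2 libraries, which gives 24 libraries in all. The labels state neither the age of the mice nor the brain region, nor whether the replicates, or the brain and liver libraries, came from separate animals, so that p-values measure the spread between these samples. All groups share the strain label, and the db/+ controls carry an altered allele as well.

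Fatty acids reach the liver as free acids from adipose tissue and inside lipoproteins. Cd36 is a membrane protein that binds long-chain fatty acids and aids their uptake, Lpl hydrolyses the triglyceride of circulating lipoproteins, and Vldlr is a receptor of triglyceride-rich lipoproteins. Fatty acid binding proteins carry the acids inside the cell: Fabp1 is the form of hepatocytes, Fabp2 that of enterocytes, Fabp4 that of adipocytes and macrophages, and Fabp5 that of epidermis, brain and macrophages. Mogat1 adds a fatty acid to monoacylglycerol and Dgat2 adds the last one to diacylglycerol, which yields triglyceride. Pparg is a nuclear receptor and the master regulator of fat cells. It pairs with an RXR on DNA elements made of a direct repeat of AGGTCA with a spacer of 1 base, and Cd36, Fabp4, Lpl and Mogat1 are among its known targets. Its level in lean liver is low, and obese mice are known to have more of it there.

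Promoter windows were taken from RefSeq (build GRCm38.p6, while the submitters' processing notes name GRCm39) and show the start regions of genes that did and did not move together in liver. A window was available for 6 of the 10 genes (Mogat1, Cd36, Fabp1, Fabp2, Pparg and Vldlr), while Dgat2, Fabp4, Fabp5 and Lpl are named only. Each sequence is the 250 bases before an annotated start, 5′ to 3′ on the strand of the gene, and capitals mark the best match on either strand to AGGTCANAGGTCA, the direct repeat that a Pparg and RXR pair can bind. Mogat1 (chr1:78510810-78511059, plus strand) and Cd36 (chr5:17835897-17836146, minus strand) are shown because they had the greatest genotype differences. Fabp1 (chr6:71199629-71199878, plus strand) is shown because it lay on the other side of 0. Pparg is shown with 2 of its 3 windows (chr6:115360894-115361143 and chr6:115421816-115422065, plus strand), as its mean transcript length in liver differed between genotypes. That difference did not pass after adjustment, and which start its reads came from was not resolved.
Mogat1: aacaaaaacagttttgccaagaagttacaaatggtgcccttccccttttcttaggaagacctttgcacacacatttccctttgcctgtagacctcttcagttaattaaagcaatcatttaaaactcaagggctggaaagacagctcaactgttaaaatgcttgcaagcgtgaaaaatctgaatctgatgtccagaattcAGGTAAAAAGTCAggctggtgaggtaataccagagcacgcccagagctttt
Cd36: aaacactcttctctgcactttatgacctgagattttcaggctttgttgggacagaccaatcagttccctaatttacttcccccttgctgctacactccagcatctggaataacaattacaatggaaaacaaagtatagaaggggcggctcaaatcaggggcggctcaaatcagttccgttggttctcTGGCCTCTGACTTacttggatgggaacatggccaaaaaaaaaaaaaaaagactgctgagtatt
Fabp1: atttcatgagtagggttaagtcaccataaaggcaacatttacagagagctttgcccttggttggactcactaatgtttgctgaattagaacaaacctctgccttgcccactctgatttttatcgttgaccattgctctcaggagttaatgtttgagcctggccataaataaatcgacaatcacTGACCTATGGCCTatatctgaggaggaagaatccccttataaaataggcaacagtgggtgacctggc
Pparg, first start: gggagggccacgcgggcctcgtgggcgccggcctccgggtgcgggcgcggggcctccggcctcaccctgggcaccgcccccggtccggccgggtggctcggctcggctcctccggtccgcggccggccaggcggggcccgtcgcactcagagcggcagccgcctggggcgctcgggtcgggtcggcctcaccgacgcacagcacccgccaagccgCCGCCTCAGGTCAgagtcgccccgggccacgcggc
Pparg, last start: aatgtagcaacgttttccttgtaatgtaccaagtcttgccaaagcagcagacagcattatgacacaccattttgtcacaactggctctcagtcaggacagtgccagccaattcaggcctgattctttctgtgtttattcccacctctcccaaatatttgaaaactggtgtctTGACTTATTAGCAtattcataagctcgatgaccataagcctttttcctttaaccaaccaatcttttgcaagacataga

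The match in the window of Fabp1 was the closest of the 6 genes, with 1 of 12 fixed letters different. It lay 67 to 55 bases before the start on the opposite strand, and 0.554% of 32851 RefSeq windows (250 bases before and 50 after each start) held a match with at most 1 mismatch. The matches of Mogat1 (51 to 39 bases before the start) and of Cd36 (63 to 51 bases before it, on the opposite strand) had 2 mismatches, and 3.86% of windows held a match with at most 2. Fabp2 had 3 mismatches (24.6% of windows had at most 3), and each Pparg window had 4 (79.8% had at most 4). The 2 Vldlr windows had 4 and 5 mismatches (99.9% had at most 5). TATAAA stood within the 50 bases before the start on the strand of the gene for Fabp1 alone among the 6 genes, and in 2.63% of all windows. The Pparg windows differ in base composition: G and C made up 82.4% of the 250 bases shown for the first start and 40.8% of those for the last (median of all windows over the same 250 bases 52.4%). The middle window, not shown, lay between them at 63.6%. A match of letters is a description and not a binding site, and the repeat match overlapped no TATAAA. Of the genes that rose in db/db liver, Fabp4, Fabp5 and Lpl had no window, and sequence outside the windows was not searched. The part of such matches in the genotype differences was not tested.

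The sum of estimated counts lay between 58287665 and 77772849 in the brain libraries and between 60384569 and 79385804 in the liver libraries. The altered receptor gene itself, Lepr, was at 0.690 to 2.504 CPM (counts scaled to the library size) in db/db and 1.90 to 18.9 CPM in db/+ liver. Its liver log2 difference was -1.93 (SE 0.32, edgeR adjusted p = 0.00788), and in brain it was -0.48 (adjusted p = 0.157). The count per gene pools all receptor forms and does not check the mutation. Tissue labels fitted their markers: 10 neuron markers summed to 7163 to 7668 CPM in brain and 0.0146 to 9.93 CPM in liver, and 12 hepatocyte markers summed to 81679 to 111849 CPM in liver. In brain the hepatocyte markers summed to 787 to 1320 CPM, and Ttr, 1 of them, is also a choroid plexus marker. For 12 of 24 samples a second label of genotype goes against the title, which was followed here.

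Fabp1 stood far above the other 9 genes in liver and was nearly undetected in brain. Levels of different genes were compared as FPKM (fragments scaled to transcript length and library depth), the deposited scale that accounts for length. In db/+ liver Fabp1 averaged 8569 ± 3043 FPKM (SD, n = 6), rank 6 of 29383 genes above 0, and in db/db liver 6132 ± 409 FPKM, rank 11 of 29732. Dgat2 (120 ± 47.5 and 193 ± 24.5 FPKM in db/+ and db/db) and Fabp2 (103 ± 43.8 and 161 ± 19.6 FPKM) came next, and their ranges overlapped in both genotypes. Cd36 followed at 25.8 ± 15.9 and 81.8 ± 13.4 FPKM, below the range of Fabp2 in each genotype, and then Fabp4 at 6.14 ± 1.504 and 22.1 ± 7.80 FPKM.

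The lower part of the order differed between genotypes, as the FPKM of Mogat1 moved up. In db/+ liver Lpl (3.29 ± 0.448 FPKM), Pparg (2.63 ± 0.683 FPKM), Mogat1 (1.48 ± 0.925 FPKM) and Fabp5 (1.40 ± 0.775 FPKM) each overlapped the next one. In db/db liver Mogat1 came sixth, at 13.8 ± 2.61 FPKM, and its range overlapped that of Fabp4 above it and that of Pparg below it (7.70 ± 2.92 FPKM). Lpl (5.63 ± 2.12 FPKM) and Fabp5 (4.85 ± 1.69 FPKM) overlapped each other and Pparg. Vldlr was last in both, at 0.404 ± 0.404 FPKM in db/+ and 0.767 ± 0.430 FPKM in db/db. These levels are a description, and no test was made between genes.

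In brain the order was another one, led by Fabp5. Fabp5 averaged 52.1 ± 3.93 FPKM in db/+ and 49.97 ± 3.502 FPKM in db/db, ahead of Dgat2 (24.8 ± 1.15 and 28.4 ± 1.97 FPKM), Vldlr (7.21 ± 1.76 and 6.42 ± 2.15 FPKM) and Lpl (3.51 ± 0.274 and 3.56 ± 0.137 FPKM). None of these 4 overlapped its neighbours in db/+, and in db/db Vldlr reached down to 3.72 FPKM, just above the highest Lpl value of 3.67 FPKM. Pparg, Cd36 and Mogat1 averaged under 1 FPKM, Fabp4 and Fabp1 under 0.2 FPKM, and Fabp2 was listed at 0 in all 12 brain libraries.

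**Figure D1:**
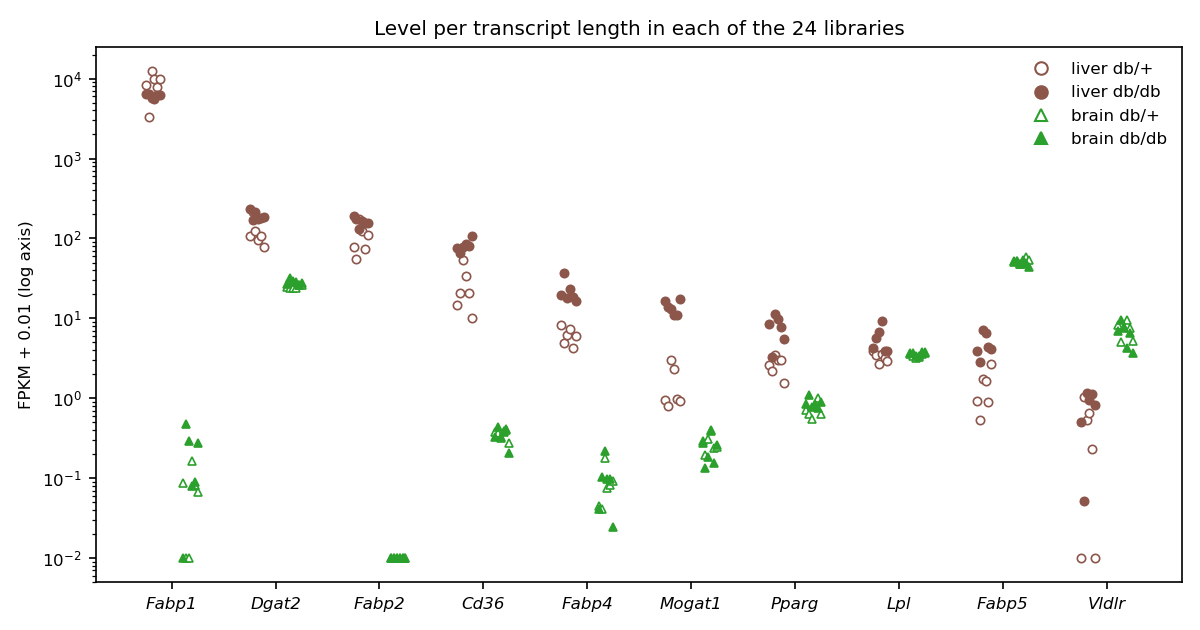
Level of each gene in FPKM (with 0.01 added so that values of 0 can be drawn, log axis) in all 24 libraries, circles for liver and triangles for brain, open for db/+ and filled for db/db, 1 point per library. Fabp1 lies at 3271 to 12338 FPKM in liver and at or below 0.472 FPKM in brain, while Fabp5 and Vldlr are the genes whose brain points lie above their liver points.

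Between tissues, 8 of the 10 genes were higher in liver and 2 higher in brain, by edgeR's quasi-likelihood test in 1 fit of all 24 libraries with Benjamini-Hochberg adjustment over 25725 genes (threshold 0.05). Of all genes, 33.9% were higher and 50.6% lower in liver, and the median log2 difference over all genes was -0.61 with TMM scaling, so each value is to be read against that shift (-0.71 with RLE scaling, and -1.57 with library sizes alone, where 5543 genes were higher and 16685 lower against 8725 and 13004 with TMM). All 10 directions and calls were the same under both and in DESeq2. Cd36 was higher in liver by 7.84 on the log2 scale (SE 0.18, edgeR adjusted p = 7.04e-15), and Dgat2 by 3.43 (SE 0.11). Fabp4 (7.57, SE 0.33), Mogat1 (5.19, SE 0.18) and Pparg (3.36, SE 0.18) were higher as well. Lpl was called higher at 1.18 (SE 0.07), a size that depended on the scaling between tissues. With library sizes alone it was 0.20 (SE 0.08, edgeR adjusted p = 0.0288). By mean FPKM Lpl in db/+ was lower in liver than in brain (3.29 against 3.51), with overlapping ranges, and in db/db higher in liver (5.63 against 3.56). Fabp5 and Vldlr went the other way, by -3.37 (SE 0.14) and -2.94 (SE 0.71). Fabp1 and Fabp2 were called higher, and no fold is given because brain libraries held 0 to 27 counts of Fabp1 and 0 of Fabp2.

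The genotype comparison asks how liver expression differs when leptin signalling is defective. Of the 10 genes, 6 rose in db/db liver and 0 fell when the genotypes were compared over all drinks, while 7.91% of the 19352 liver genes tested were called higher and 7.27% lower. The median log2 difference was 1.09 over the 10 genes and -0.03 over all genes. Because the 10 genes were chosen with earlier results of these data known, these values beside all genes are no test of the list. All 10 passed the filter on low counts, which asks for counts in as many libraries as 1 group holds. Mogat1, Cd36, Fabp4, Fabp5, Pparg and Lpl rose, and Fabp2, Dgat2, Vldlr and Fabp1 did not pass. In Cd36, Mogat1 and Fabp4 every db/db library lay above every db/+ library, an arrangement found in 4.91% of the liver genes tested.

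**Figure D2:**
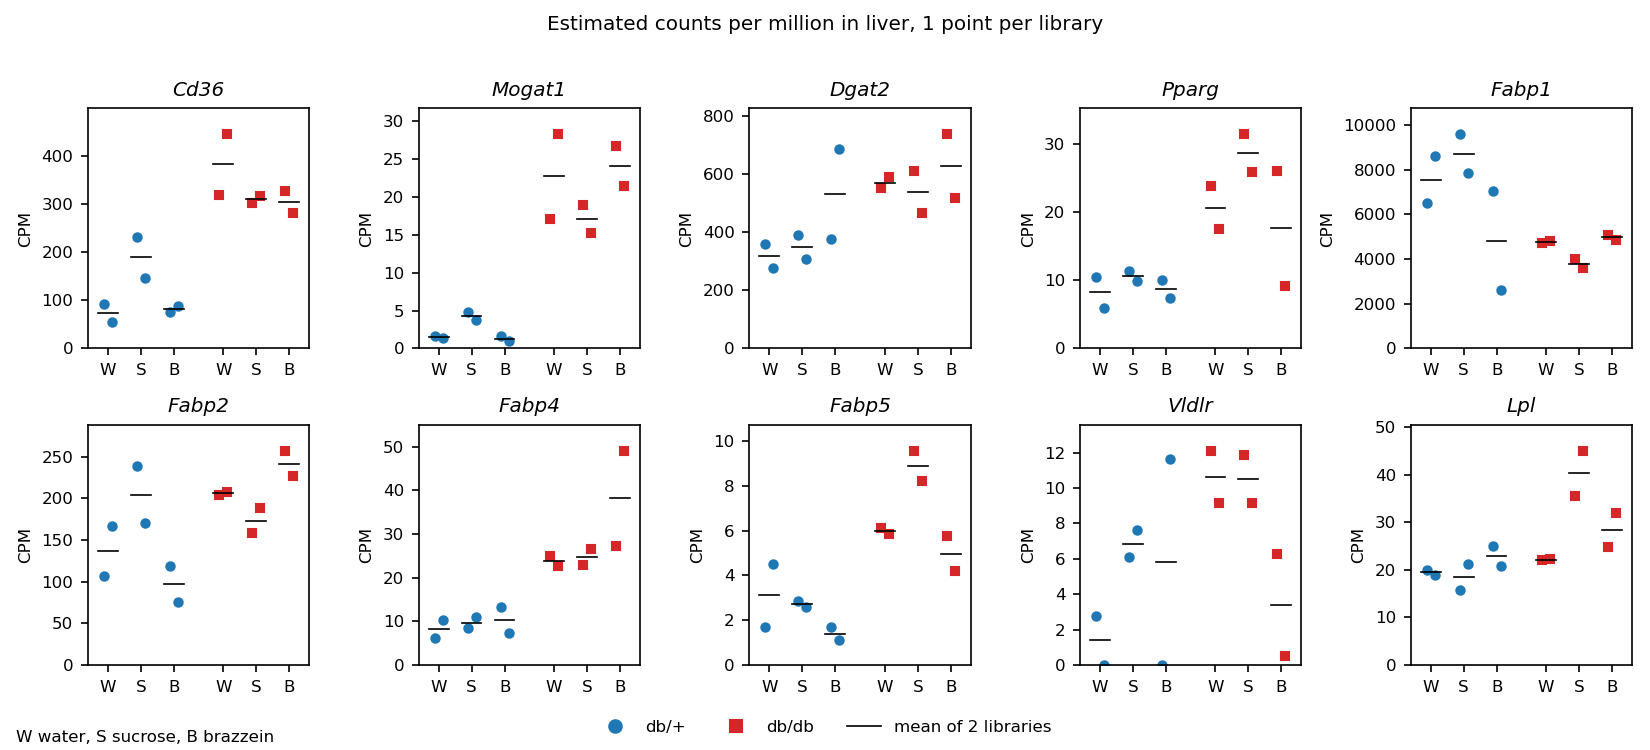
CPM of each gene in the 12 liver libraries on linear axes from 0, blue circles for db/+ and red squares for db/db, by drink (W water, S sucrose, B brazzein), with a line at the mean of 2 libraries. The red points lie above all blue points for Cd36, Mogat1 and Fabp4, and below most of them for Fabp1.

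Among the uptake genes, Cd36 in db/+ liver was at 92.7 and 54.5 CPM (water), 231 and 148 CPM (sucrose) and 76.3 and 89.2 CPM (brazzein). The db/db livers held 320 and 446 CPM (water), 304 and 318 CPM (sucrose) and 328 and 282 CPM (brazzein). The highest db/+ value was a sucrose library and stayed below the lowest db/db value of 282 CPM. The log2 difference was 1.66 (SE 0.18, edgeR adjusted p = 0.00168), higher in 6 of 6 db/db libraries. Lpl, the lipase, was at 15.7, 20.4 and 25.1 CPM (lowest, median and highest) in db/+ and 22.1, 28.4 and 45.1 CPM in db/db liver, so that the groups overlapped. The log2 difference of 0.54 (SE 0.13) passed at an edgeR adjusted p of 0.0276. Lpl was no longer called without db/+ sucrose replicate 1, db/+ water replicate 1 or 2, db/db brazzein replicate 2, db/db sucrose replicate 2, or db/db water replicate 1 or 2 (edgeR adjusted p 0.0577 to 0.0810).

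Vldlr, the lipoprotein receptor, varied more within groups than between them in liver. The db/+ libraries were at 2.78 and 0 CPM (water), 6.09 and 7.63 CPM (sucrose) and 0 and 11.6 CPM (brazzein). The db/db libraries were at 12.1 and 9.14 CPM (water), 11.9 and 9.14 CPM (sucrose) and 6.25 and 0.527 CPM (brazzein). The log2 difference was 0.92 with an SE of 1.34 (edgeR adjusted p = 0.689). It was 4.83 without db/+ brazzein replicate 2, the highest of the db/+ libraries, and still not called (edgeR adjusted p = 0.110). The 2 libraries listed at 0 stand beside others of the same group with 165 and 713 estimated counts, and in a file of estimates a 0 can be a failed assignment.

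Of the triglyceride assembly enzymes, Mogat1 showed the greatest genotype difference of the 10 genes. In db/+ liver it was at 1.65 and 1.42 CPM (water), 4.76 and 3.79 CPM (sucrose) and 1.60 and 1.01 CPM (brazzein). In db/db liver it was at 17.1 and 28.3 CPM (water), 18.98 and 15.2 CPM (sucrose) and 26.8 and 21.4 CPM (brazzein). The lowest db/db value of 15.2 CPM was above all db/+ values, of which the 2 sucrose libraries were the highest. Mogat1 rose by 3.36 on the log2 scale (SE 0.21, edgeR adjusted p = 0.000257).

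Dgat2, the last enzyme of the path, was more abundant in both genotypes and differed less. It was at 358 and 277 CPM (water), 391 and 307 CPM (sucrose) and 377 and 688 CPM (brazzein) in db/+ liver, and at 467 to 737 CPM in db/db liver. The db/+ brazzein library with 688 CPM lay among the db/db libraries, and the other 5 lay below all of them. The log2 difference was 0.57 (SE 0.18, edgeR adjusted p = 0.0692). Without that library, db/+ brazzein replicate 2, it was 0.76 and passed (edgeR adjusted p = 0.0170). DESeq2 called Dgat2 with all libraries (adjusted p = 0.0415).

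The fatty acid binding proteins did not move as a family. Fabp4, the adipocyte and macrophage form, was at 6.15 and 10.2 CPM (water), 8.44 and 10.9 CPM (sucrose) and 13.2 and 7.21 CPM (brazzein) in db/+ liver. The db/db livers held 24.9 and 22.6 CPM (water), 22.98 and 26.7 CPM (sucrose) and 27.3 and 49.1 CPM (brazzein). The groups did not overlap, and the difference was 1.60 on the log2 scale (SE 0.23, edgeR adjusted p = 0.00517). Fabp5 was at 1.09 to 4.51 CPM in db/+ (mean 2.41 ± 1.22) and 4.19 to 9.58 CPM in db/db liver (mean 6.62 ± 1.94, SD, n = 6 each). It rose by 1.499 (SE 0.26, edgeR adjusted p = 0.009995), with 1 db/+ water library at 4.51 CPM above the lowest db/db library.

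Fabp1 and Fabp2, the most abundant of the binding proteins in liver, did not pass. Fabp1 was at 6518 and 8586 CPM (water), 9581 and 7833 CPM (sucrose) and 7044 and 2593 CPM (brazzein) in db/+ liver, and at 3598 to 5092 CPM in db/db liver. The db/+ brazzein library at 2593 CPM was the lowest of all 12, while the other 5 db/+ libraries lay above every db/db library. The log2 difference was -0.61 (SE 0.23, edgeR adjusted p = 0.108), and -0.77 without db/+ brazzein replicate 2, where it passed (edgeR adjusted p = 0.00436). Fabp2 was at 75.6 to 239 CPM in db/+ and 158 to 257 CPM in db/db liver, with a log2 difference of 0.56 (SE 0.16, edgeR adjusted p = 0.0575). It passed without db/+ brazzein replicate 1 (edgeR adjusted p = 0.0374) or db/+ water replicate 2 (0.0417), and in DESeq2 with all libraries (adjusted p = 0.0278).

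**Figure D3:**
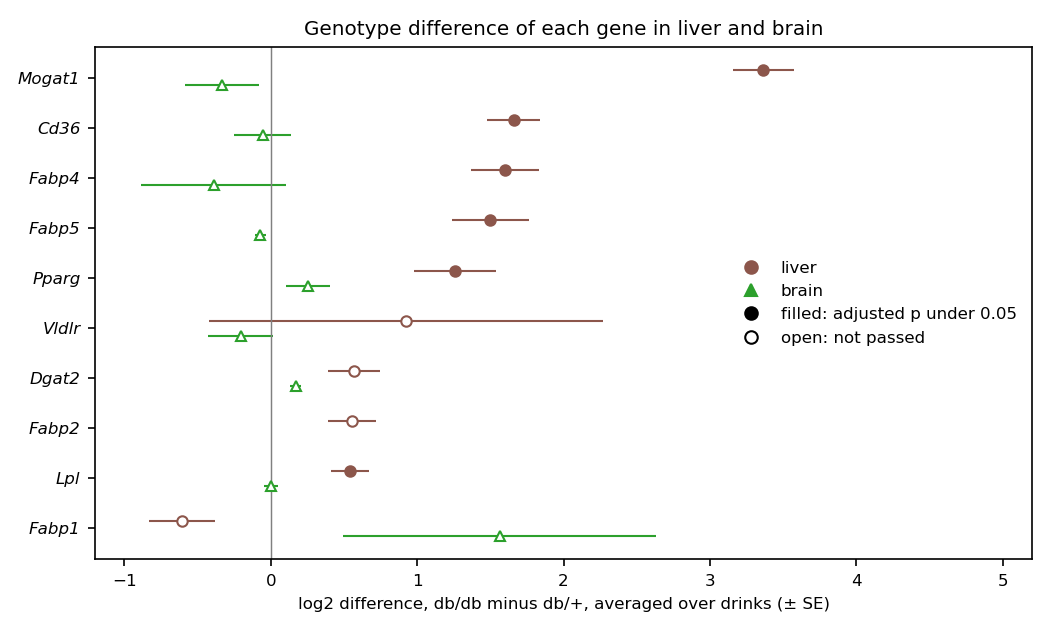
Log2 difference between db/db and db/+ averaged over drinks, with its SE, for each gene in liver (circles) and brain (triangles), filled where the edgeR adjusted p is under 0.05. In liver 6 genes are filled, from Mogat1 at 3.36 to Lpl at 0.54, in brain none is, and Fabp2 has no brain point because it was listed at 0 there.

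Pparg, the nuclear receptor, rose in db/db liver by 1.26 on the log2 scale (SE 0.28, edgeR adjusted p = 0.0225). The db/+ libraries were at 10.5 and 5.97 CPM (water), 11.3 and 9.87 CPM (sucrose) and 9.99 and 7.45 CPM (brazzein). The db/db libraries were at 23.8 and 17.4 CPM (water), 31.4 and 25.8 CPM (sucrose) and 26.03 and 9.17 CPM (brazzein). The db/db brazzein library at 9.17 CPM lay among the db/+ libraries, and the other 5 lay above all of them. Pparg was no longer called without db/+ sucrose replicate 1 or 2, db/+ water replicate 2, db/db sucrose replicate 1 or 2, or db/db water replicate 1 (edgeR adjusted p 0.0515 to 0.0604). Mogat1, Cd36, Fabp4 and Fabp5 stayed called in each of the 12 fits that left out 1 library.

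The reads of Pparg in db/db liver came from shorter transcripts on average. The deposited counts equal the deposited coverage times a length divided by a read length of 75, and for genes with 1 annotated transcript that length was within 1% of the annotated one for 76.9% to 81.9% of genes with at least 500 counts, so the ratio gives the mean length of the transcripts to which reads were assigned. For Pparg it was 2344 and 2436 nt (water), 2308 and 2318 nt (sucrose) and 2448 and 2391 nt (brazzein) in db/+ liver. It was 2258 and 2263 nt (water), 2210 and 2226 nt (sucrose) and 2173 and 2085 nt (brazzein) in db/db liver. Every db/db value lay below every db/+ value, at a mean of 2203 ± 66.4 against 2374 ± 60.1 nt (SD, n = 6 each), a difference of -171 nt or -7.22%.

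The 2-sided exact permutation p of this Pparg difference was 0.00216, the smallest that 924 arrangements of 6 against 6 can give. Adjusted over the 8570 genes with at least 100 counts in every liver library it was 0.136, which does not pass. No gene can reach a smaller p, so the adjusted value depends on how many genes share it and cannot set Pparg apart. Among those genes, 1.59% had lengths that did not overlap between the genotypes (136 genes, 42 of them shifted by over 5%). Of the 7 members with such lengths in all liver libraries, Pparg alone did not overlap. Other members were shorter in db/db liver too, with overlapping ranges. Lpl differed by -8.38 nt (unadjusted exact permutation p = 0.00649). Fabp5, with 100 counts in only 4 of the db/+ libraries, averaged 1050 ± 25.7 nt in db/db and 1153 ± 81.6 nt in db/+ (unadjusted exact permutation p = 0.0190). In brain the mean of Pparg was 2407 ± 18.3 nt in db/db and 2378 ± 53.6 nt in db/+, with an exact permutation p of 0.247. The annotated transcripts at hand (GENCODE M21) reach 2125 nt at most, so which Pparg forms the reads came from was not resolved.

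**Figure D4:**
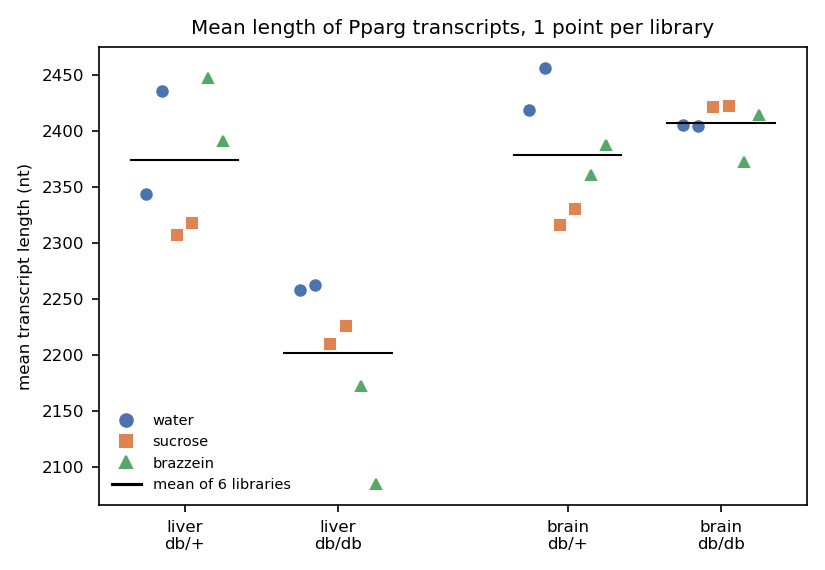
Mean length in nucleotides of the transcripts to which Pparg reads were assigned, 1 point per library, with shapes for the drinks and a line at the mean of 6 libraries; the axis does not start at 0. The db/db livers lie between 2085 and 2263 nt, below the db/+ livers at 2308 to 2448 nt, while the brain groups overlap.

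Cells other than hepatocytes express several of these genes, and their markers were measured beside them. In bulk tissue a change in the number of such cells and a change in RNA per cell cannot be told apart. Of all liver genes tested, 7.91% were called higher and 7.27% lower, and the marker counts here and below are to be read beside these shares. Of 18 macrophage and Kupffer cell markers 8 were higher in db/db liver and 0 lower, with sums of 139 to 499 CPM in db/+ and 320 to 549 CPM in db/db. Gpnmb rose by 5.62 and Trem2 by 3.20 on the log2 scale, and both mark lipid-laden macrophages. Of 14 endothelial markers 1, Lyve1, was higher (log2 1.83), a share near that of all genes, with sums of 61.4 to 147 and 112 to 191 CPM. Of 7 blood markers tested of 10, 4 were higher, with sums of 659 to 1214 and 1101 to 3710 CPM. The part of macrophages, endothelium or blood in the rise of Cd36, Fabp4, Fabp5, Pparg and Lpl was not tested.

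Adipocyte markers were low in all livers. The 10 markers summed to 3.29 to 5.94 CPM in db/+ and 1.18 to 6.92 CPM in db/db, Adipoq was at most 0.208 CPM, and Slc7a10 and Ucp1 were listed at 0 throughout. Of the 6 tested, Retn and Adig were called higher, at up to 0.879 and 1.15 CPM in db/db, and Adrb3 lower. Adrb3 was at 2.04 to 4.75 CPM in db/+ and at most 1.25 CPM in db/db, and Cfd, which was not called, at most 1.61 and 4.03 CPM. These are levels like those of Mogat1 and Fabp5 in db/+ liver. Of 12 intestine markers, the defining Cdx1, Sis, Alpi and Isx and also Fabp6 were listed at 0 in every liver library. Of the 5 tested, Krt20 was called higher, listed at 0 in every db/+ liver and at 0.420 to 2.13 CPM in db/db, and Lgr5 lower, at 3.03 to 5.999 and 1.42 to 2.97 CPM (log2 -1.02). The intestine list summed to 4.12 to 12.9 CPM in db/+ and 3.53 to 5.40 CPM in db/db. The part of either cell type in the genotype differences was not tested. Of 12 hepatocyte markers 0 were called. Mitochondrial ribosomal RNA made up 0.578% to 1.29% of counts in db/+ and 0.263% to 0.336% in db/db liver, and its part in the genotype differences was not tested.

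On each drink taken alone, with 2 libraries against 2, Mogat1 rose in db/db liver on all drinks. The Mogat1 log2 difference was 3.89 on water (SE 0.37, edgeR adjusted p = 0.00870), 2.0 on sucrose (SE 0.34, 0.0449) and 4.21 on brazzein (SE 0.37, 0.00415). Cd36 rose on water (2.38, SE 0.32, edgeR adjusted p = 0.0197) and on brazzein (1.88, SE 0.31, 0.0316). On sucrose its difference was 0.71 (SE 0.30, edgeR adjusted p = 0.296). These were the calls among the 10 genes by edgeR, 2 on water, 1 on sucrose and 2 on brazzein, and 0.971%, 0.47% and 0.925% of all tested genes were called higher on the respective drinks. The counts over all genes in either direction (293, 168 and 305) ran from 14 to 606, 19 to 438 and 131 to 389 when each library was left out in turn. The lowest counts came without db/db water replicate 2, db/+ sucrose replicate 1 and db/db brazzein replicate 2, and the highest without db/+ brazzein replicate 2 (water and sucrose) and db/db brazzein replicate 1 (brazzein).

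The remaining genes did not pass on single drinks in edgeR, with differences of similar size for some. Fabp4 had log2 differences of 1.53, 1.36 and 1.90 on water, sucrose and brazzein, and Pparg 1.32, 1.43 and 1.01. For Lpl the difference was 1.13 on sucrose (SE 0.22, edgeR adjusted p = 0.0637), 0.19 on water and 0.31 on brazzein. Fabp2 had 1.32 on brazzein (SE 0.29, edgeR adjusted p = 0.0750), 0.59 on water and -0.24 on sucrose. DESeq2 called Lpl on sucrose (adjusted p = 0.000667), Fabp2 on brazzein (0.00405), Fabp4 on all drinks and Fabp5 on sucrose and brazzein.

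**Figure D5:**
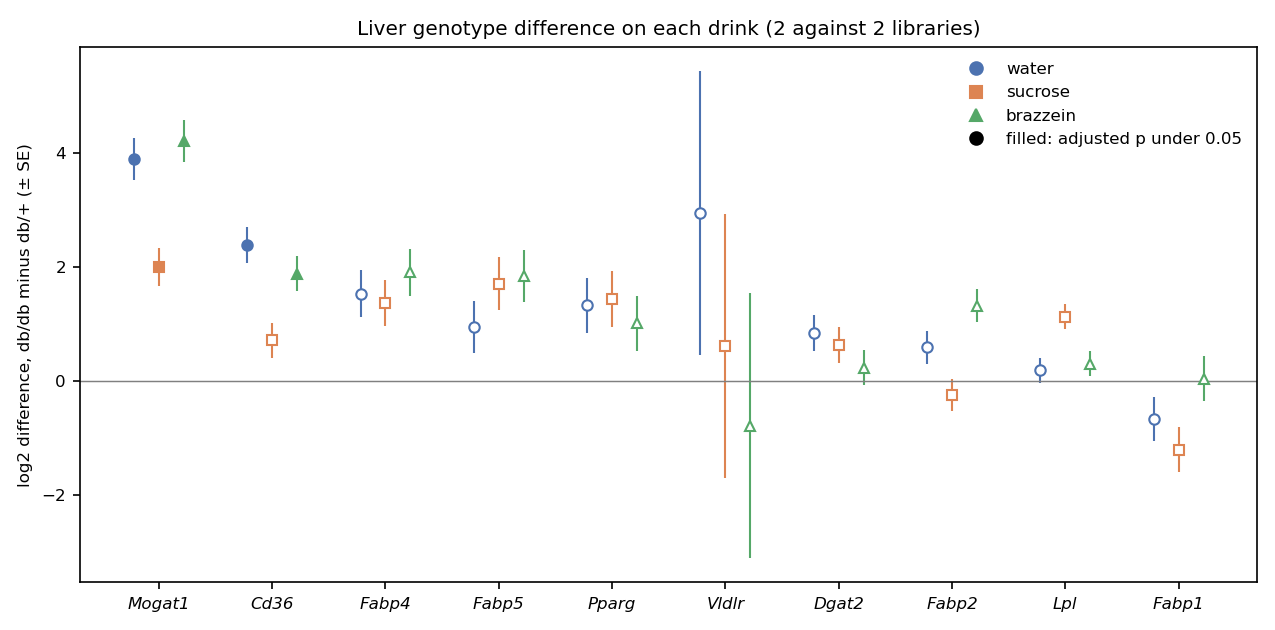
Log2 difference between db/db and db/+ liver on each drink, with its SE, from 2 against 2 libraries, filled where the edgeR adjusted p is under 0.05. For Mogat1 and Cd36 the sucrose square is the lowest of the 3 points (2.0 and 0.71), and for Lpl it is the highest (1.13).

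Single libraries decided some of these calls. Without db/+ water replicate 2 the water calls of Mogat1 and Cd36 were lost (edgeR adjusted p = 0.0649 for Mogat1), and Cd36 was also lost on water without db/db water replicate 2 (the 2 Cd36 values were 0.0969 and 0.122). The sucrose call of Mogat1 held only without db/+ brazzein replicate 1 or 2 and was lost without any of the other 10 libraries (0.0593 to 0.192). The brazzein call of Cd36 was lost in 8 of 12 such fits, without either brazzein library of either genotype, either db/db sucrose library or either db/db water library (0.0520 to 0.0945). With the replicate number as a block that call was lost too, as was the sucrose call of Mogat1 (1 and 0 genes called), and the filter on low counts was needed for the latter. Fabp4 passed on brazzein without db/db brazzein replicate 1 (edgeR adjusted p = 0.0481). Fabp1 was called lower on sucrose without db/+ brazzein replicate 1 or 2 (0.0254 and 0.0255).

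The drinks were compared within each genotype to ask how sucrose and brazzein intake bear on these genes. By edgeR, 0 of the 10 genes passed in any of the 6 liver comparisons. In db/+ liver 0.0155% of all genes were called for sucrose minus water, 0.00517% for brazzein minus water and 0.0207% for brazzein minus sucrose. At an unadjusted p under 0.05 the count was 2, 2 and 3 of the 10 genes, and 1158, 1172 and 1693 of all 19352. DESeq2 called 2, 0 and 1 of the 10, and 216, 164 and 415 of all genes. In db/db liver 0.00517%, 0.119% and 0.16% of all genes were called in the same order. At an unadjusted p under 0.05 the count was 1, 0 and 0 of the 10 genes, and 827, 1658 and 2848 of all 19352. DESeq2 called 0 of the 10, and 78, 508 and 1270 of all genes.

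The 2 genes that DESeq2 called in db/+ liver were Cd36 and Mogat1. Both sucrose libraries lay above all 4 water and brazzein libraries for each, as given above. Between sucrose and water the Cd36 log2 difference was 1.36 (SE 0.31, edgeR adjusted p = 0.588, DESeq2 adjusted p = 0.0323). For Mogat1 it was 1.48 (SE 0.34, edgeR adjusted p = 0.588, DESeq2 adjusted p = 0.0175). Between brazzein and sucrose the differences were -1.19 (SE 0.30, edgeR adjusted p = 0.351) for Cd36 and -1.71 (SE 0.34, edgeR adjusted p = 0.232, DESeq2 adjusted p = 0.00166) for Mogat1. The comparisons share the sucrose libraries. Fabp2 had -1.08 between brazzein and sucrose (SE 0.29, edgeR adjusted p = 0.368), and Fabp1 -0.85 (SE 0.39, 0.592). Without db/+ brazzein replicate 1, which leaves the library with the lowest Fabp1 as the whole group, Fabp1 was called lower on brazzein (edgeR adjusted p = 0.0299) and its interaction with genotype passed as well (0.0253).

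In db/db liver the same genes differed little between drinks. Sucrose minus water was -0.30 (SE 0.30) for Cd36 and -0.41 (SE 0.33) for Mogat1 on the log2 scale, and brazzein minus sucrose was -0.03 (SE 0.30) and 0.49 (SE 0.33). Lpl had the smallest unadjusted p, with 0.86 between sucrose and water (SE 0.22, edgeR adjusted p = 1). Its sucrose libraries, at 35.5 and 45.1 CPM, were the highest of the 12 livers, with water at 22.1 and 22.2 CPM.

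Whether a drink difference itself differed between genotypes was tested as an interaction, and by edgeR 0 of the 10 genes passed. Of all genes, 0.0155% were called for sucrose minus water, 0.0672% for brazzein minus water and 0.0672% for brazzein minus sucrose. At an unadjusted p under 0.05 the count was 3, 0 and 4 of the 10 genes, and 961, 1203 and 1997 of all 19352. DESeq2 called 0, 0 and 1 of the 10, and 98, 269 and 433 of all genes. That 1 was Mogat1 for brazzein minus sucrose, with a difference of 2.21 between genotypes (SE 0.47, edgeR adjusted p = 0.255, DESeq2 adjusted p = 0.00430). For sucrose minus water it was -1.89 for Mogat1 (SE 0.47) and -1.67 for Cd36 (SE 0.43), with an edgeR adjusted p of 0.915 for each.

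In brain 0 of the 9 genes tested differed between genotypes by edgeR, and 0.00846% of 23653 genes did. Fabp2, listed at 0, was not tested. At an unadjusted p under 0.05 the count was 1 of the 9, which was Dgat2. The db/+ brains were at 86.2 and 85.5 CPM (water), 79.4 and 78.2 CPM (sucrose) and 83.3 and 78.8 CPM (brazzein), and the db/db brains at 86.5 to 96.7 CPM. Every db/db library lay above every db/+ library, an arrangement found in 0.871% of the brain genes tested. The log2 difference was 0.17 (SE 0.04, edgeR adjusted p = 0.169), and DESeq2 called it (adjusted p = 0.0294). Of 10 choroid plexus markers 0 were called, and their median log2 difference was 0.12. Their sums of 790 to 1117 CPM in db/+ and 1176 to 1366 CPM in db/db brain did not overlap either. The 12 hepatocyte markers, a list that shares only Ttr with this one, summed to 787 to 1072 and 1148 to 1320 CPM there. A sum can follow 1 abundant gene, so these sums do not show a shift of the list. The part of choroid plexus in the Dgat2 values was not tested.

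Fabp5, Vldlr and Lpl, the other genes well expressed in brain, had overlapping genotype groups. Fabp5 was at 75.1 to 89.4 CPM in db/+ and 70.7 to 80.1 CPM in db/db, with a log2 difference of -0.07 (SE 0.04, edgeR adjusted p = 0.454). Vldlr was at 59.2 to 112 and 45.3 to 106 CPM (-0.21, SE 0.23), and Lpl at 19.5 to 23.2 and 19.9 to 22.7 CPM (0.00, SE 0.05). Between the drinks, averaged over genotypes, 0 of the 9 genes passed by edgeR (1, 0 and 0 at an unadjusted p under 0.05), and 0.0% of all genes did for sucrose minus water, 0.0% for brazzein minus water and 0.0% for brazzein minus sucrose. At an unadjusted p under 0.05 the counts over all genes were 1327, 1090 and 951, and DESeq2 called 61, 55 and 66 genes.

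The genotype difference was larger in liver than in brain for 5 genes, by the interaction of genotype and tissue in the fit of 24 libraries, and 5.41% of all genes were called in that direction. The difference of differences was 3.71 for Mogat1 (SE 0.32, edgeR adjusted p = 1.05e-05), 1.72 for Cd36 (SE 0.27, 0.00115) and 1.58 for Fabp5 (SE 0.26, 0.00172). It was 1.99 for Fabp4 (SE 0.53, 0.0288) and 0.55 for Lpl (SE 0.14, 0.0247). Pparg, at 1.01 (SE 0.33), did not pass (edgeR adjusted p = 0.0696), but did without liver db/+ water replicate 1 or liver db/db brazzein replicate 2 (0.0417 and 0.00999), with library sizes alone (0.0418), and in DESeq2 with all libraries (log2 1.00, adjusted p = 0.0237). Without liver db/+ brazzein replicate 2, Dgat2 (0.0192) and Vldlr (0.0490) passed. Brain libraries held 15 to 38 counts of Mogat1 and 4 to 30 of Fabp4, so the brain side of these 2 values is imprecise. The calls of Fabp4 and Lpl were lost without any of 8 and of 6 of the 24 libraries (edgeR adjusted p 0.05001 to 0.0916 for Fabp4 and 0.0510 to 0.0541 for Lpl). For Fabp4 these were brain db/+ brazzein replicate 2, sucrose replicate 1 and both on water, brain db/db brazzein replicate 1, sucrose replicate 2 and water replicate 2, and liver db/db brazzein replicate 2. For Lpl they were brain db/+ brazzein replicate 1 and sucrose replicate 2, and brain db/db brazzein replicate 2, both on sucrose and water replicate 1, and its call was also lost without the filter on low counts (edgeR adjusted p = 0.0573).

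Other genes of the same paths were counted from 4 lists, to be read beside the 7.91% of all liver genes called higher and the 7.27% called lower. In brain 0 of each list passed, where 0.00846% of all genes did. Of 17 genes of fatty acid transport and activation tested, 2 were higher and 3 lower. Slc27a4, a fatty acid transport protein, was at 33.2 ± 6.33 CPM in db/+ and rose to 75.7 ± 16.6 CPM in db/db (log2 1.18, SD over 6 libraries) and Dbi, the acyl-CoA binding protein, by 0.59. Slc27a1 (log2 -1.25), Slc27a2 (-0.88) and Acsl1 (-0.66), which transport or activate fatty acids, fell.

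Of 24 enzymes and proteins of glycerolipid assembly, 5 were higher and 2 lower. Fitm1, a protein of the endoplasmic reticulum that partitions triglyceride into droplets, rose from 39.2 ± 15.5 to 126 ± 25.9 CPM (log2 1.67). Agpat3 (0.82), Lpin3 (0.73) and Plpp2 (0.67) were higher, and Gpat2 (-0.78) and Gpat4 (-0.34), which acylate glycerol-3-phosphate, were lower. Dgat1, the other enzyme of the last step, was at 21.01 ± 4.53 CPM in db/db and 24.4 ± 3.21 CPM in db/+ (edgeR adjusted p = 0.417). Mogat2, a relative of Mogat1, was at 1.53 ± 1.24 and 0.226 ± 0.367 CPM (edgeR adjusted p = 0.0727).

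Of 20 lipoprotein receptors and lipase partners tested, 2 were higher and 2 lower. Apoc2, the cofactor that Lpl needs, rose from 130 ± 78.9 to 534 ± 156 CPM (log2 2.18). Apoa5 fell by 0.57 and Apoc1 by 0.48 on the log2 scale. Of 18 members and partners of the PPAR family, Rxrg, a partner of Pparg on DNA, was the 1 called (log2 0.64, 11.2 ± 1.69 against 7.23 ± 1.66 CPM). The median log2 differences of the 4 lists were -0.22, 0.16, -0.04 and -0.20 in the order given, beside -0.03 over all genes.

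The genes whose liver pattern was most like that of each risen member were found by the root mean square difference of centred log2(CPM + 1) values over the 12 liver libraries. They were sought among 11331 genes with a mean of at least 1 CPM, leaving out the members and names of predicted genes, clones and mitochondrial genes. For Cd36 these were Slc35f2 (0.298), Acot11 (0.339) and Acpp (0.346), and for Mogat1 Anxa2 (0.307), Limk1 (0.330) and Wfdc2 (0.378). For Pparg they were Acly (0.260), Acot9 (0.269) and Vat1 (0.273), and for Fabp4 Arl2bp (0.320), Trem2 (0.323) and Pdlim2 (0.324). Fabp5 had Col4a1 (0.278), Plscr4 (0.296) and Cotl1 (0.315), and Lpl had Plau (0.174), Mcm6 (0.176) and Npdc1 (0.184). The spread of the member about its own mean on the same scale was 0.970 for Cd36, 1.47 for Mogat1, 0.715 for Pparg, 0.835 for Fabp4, 0.717 for Fabp5 and 0.392 for Lpl. Trem2, beside Fabp4 here, is among the macrophage markers above. Its means were 3.13 CPM in db/db and 0.340 CPM in db/+ liver. At such low levels the added 1 narrows differences on this scale, so the likeness depends in part on it. Each risen member was taken for its genotype difference, so genes with a like difference lie near it by design.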

How the data were processed

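The deposited per-sample files hold expected counts per gene, whole numbers not scaled for library size, and the deposited series table holds coverage signal and, per the file headers, FPKM. Per the labels' protocols, TRIzol extraction was followed by poly(A) selection and a NEBNext Ultra II RNA kit that is not named as directional, so genes on opposite strands of 1 locus share reads. Per the submitters' processing notes, bcl2fastq and GRCm39 were used, while the aligner and counter were not given in the sources used here. The 2 liver db/+ brazzein replicates have each other's column name in the headers of their count files, and columns of the series table were taken by header name, within 1 group.

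Counts were tested in edgeR 4.0.16 (R 4.3.3) with TMM factors, filterByExpr by group, 1 coefficient per group (6 groups in 1 fit per tissue, and all 24 libraries in 1 fit for tissue), quasi-likelihood tests and Benjamini-Hochberg adjustment over all genes tested at 0.05. SE is the log2 difference divided by the square root of F. With 2 libraries per group precision is limited, and where 1 of them is left out the other is assumed to vary like the other groups. Because counts are estimates, no counting interval is given. Single lengths were tested with exact permutation tests in scipy 1.17.1. The edgeR test of genotype over all drinks was tried on simulated counts in each tissue. The other steps were not.

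The 10 genes and all gene lists were chosen with earlier results of these data known. Named genes were the 10, up to 4 higher and 4 lower called genes per path list (1 such gene is not reported here), and the 3 genes most alike; Dgat1, Mogat2 and the markers were named after their values were seen. Each comparison was also run in DESeq2 1.42.0, with RLE in place of TMM, without the low-count filter, with the replicate number as a block, and without each library in turn, and the fit of both tissues also with library sizes alone.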

Additional observations from a re-analysis of the deposited data

Results flagged for a closer look

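In 4 of 38 groups of 6 libraries (1 gene in 1 tissue and genotype), 1 library lay far from the other 5, by Dixon's test at the 95% level, where chance alone gives about 1 in 20. Cd36 in db/db liver was at 446 CPM in water replicate 2, and at 282 to 328 CPM in the other libraries. Dgat2 in db/+ liver was at 688 CPM in brazzein replicate 2, against 277 to 391 CPM. Fabp4 in db/db liver was at 49.1 CPM in brazzein replicate 2, against 22.6 to 27.3 CPM. Fabp4 in db/+ brain was at 0.426 CPM in sucrose replicate 1, where all values were near 0. The groups of 6 pool 3 drinks.

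The genotype difference differed between liver and brain in 5 genes by the edgeR interaction test, with log2 differences of differences of 3.71 for Mogat1, 1.99 for Fabp4, 1.72 for Cd36, 1.58 for Fabp5 and 0.55 for Lpl.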

How the results depend on the processing

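RLE factors changed no call of the 10 genes. DESeq2 called more: 4 for genotype on sucrose (1 by edgeR), 5 on brazzein (2), 2 for sucrose minus water in db/+ liver (0), 1 each for brazzein minus sucrose in db/+ liver, its interaction with genotype, and brain genotype (0 each). Beyond the edgeR calls it also called Dgat2 and Fabp2 for liver genotype over all drinks. The same held for Fabp4 for genotype on water and for Pparg for the genotype and tissue interaction. Without the filter 0 passed on sucrose. Replicate numbers did not pair the samples (correlations of same-numbered deviations -0.121 to 0.0931 in liver and -0.0513 to 0.0522 in brain). A replicate block left 0 members called on sucrose and 1 on brazzein, and changed no other count of members by over 1.5 times. Leaving out each library in turn gave 4 to 8 members for genotype over all drinks, 0 to 2 on water, 0 to 2 on sucrose, 1 to 2 on brazzein, 0 to 1 for brazzein minus sucrose in db/+ and for its interaction, and 3 to 7 for the genotype and tissue interaction. Values that changed sign were those of brain genotype for Cd36 (-0.25 to 0.0880), Fabp1 (-0.66 to 3.32, 0 to 27 counts a library), Fabp4 (-0.70 to 0.0039) and Lpl (-0.015 to 0.016). The Pparg length difference ran from -184.7 to -147.9 nt, and this and the fit of both tissues by library sizes alone were chosen after seeing the data. The latter gave 10 members for tissue, as with TMM, and 6 for the interaction (5 with TMM). Causes were not tested.

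Over all genes, counts called by DESeq2 and by edgeR were 4646 and 2937 for liver genotype, 1975 and 293 on water, 1468 and 168 on sucrose, 1810 and 305 on brazzein, 699 and 2 for brain genotype, and 4477 and 2509 for the tissue interaction. For the liver drink pairs DESeq2 called 78 to 1270 in db/db (edgeR 1 to 31) and 164 to 415 in db/+ (1 to 4), and 98 to 433 for the interactions (3 to 13). With the block the genotype counts on water, sucrose and brazzein were 147, 72 and 194, and without the filter 193 on water. Leaving out 1 library moved the count over all drinks to 1407 to 3402.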

Other observations

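The brain and liver forms of the binding proteins crossed over between the tissues. On the FPKM scale Fabp5 was the highest of the 10 genes in brain and the ninth in liver, and Fabp1 the highest in liver. Fabp7, another brain form, was at 12.9 ± 0.967 CPM in db/+ and 10.1 ± 1.34 CPM in db/db brain (SD, n = 6 each, log2 -0.36, edgeR adjusted p = 0.146). The 12 brain values of db/+ and db/db did not overlap, at 12.1 to 14.7 and 8.30 to 11.7 CPM. How many brain genes had every db/db library below every db/+ library was not counted, so this is a description only.

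Angptl4, which inhibits Lpl, was at 256 ± 97.1 CPM in db/+ and 149 ± 12.95 CPM in db/db liver (log2 -0.75, edgeR adjusted p = 0.0634). Gpihbp1, which anchors Lpl on capillaries, was at 14.4 ± 4.02 and 21.9 ± 4.46 CPM (log2 0.61, edgeR adjusted p = 0.123). Srebf1, a driver of fat synthesis genes, was at 22.4 ± 11.9 and 49.2 ± 14.7 CPM (log2 1.19, edgeR adjusted p = 0.0666). None of these 3 passed, and they and Fabp7 were chosen after their values were seen.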
